A study of Mus musculus with 16 samples.

Results

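The cells described here are fibroblasts of the pubertal mouse mammary gland whose *Pi16* and *Dpp4* type genes outweighed those of the remaining fibroblasts. They came from single fragments of mammary gland of mice 5 weeks old, of the *K14-Cre/R26-mTmG* genotype on a C57BL/6 background, in which a keratin 14 promoter drives Cre and so marks epithelium rather than stroma. All 3 groups shared this genotype, age and strain and had no treatment. They were 4 fragments from the nipple region, 6 from ducts and 6 terminal end buds (TEBs), the growing tips of the ducts. Each fragment was dissected by hand, digested and sorted 1 cell to a well, and 3' SMART-seq counted unique molecular identifiers (UMIs), so that copies made in amplification were counted once. The labels do not name the animal of any fragment, so a spread between fragments may be one within a mouse.

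Of 1419 deposited cells, 1317 passed the limits on spike-ins, UMIs and genes, and 254 of these were fibroblasts by the highest mean z-score of *Col1a1*, *Col3a1*, *Dcn* and *Pdgfra* against the gene sets of 5 other classes. A fibroblast was a member when the mean z-score of *Pi16*, *Dpp4*, *Cd248*, *Akr1c18* and *Fndc1* lay above that of *Penk*, *Smoc2*, *Mmp3*, *Cthrc1* and *Mfap4*. This rule selected 94 members and left 160 other fibroblasts. Since members were selected on these measured values, all levels of the 10 genes below, and every gene's difference between members and other fibroblasts, are descriptions without a test.

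Fibroblasts that carry *Pi16* and *Dpp4* are known from many organs, where they lie in the adventitia of vessels and in fascia, the connective tissue sheets between tissue compartments. In fat, cells of this kind form an interstitial progenitor pool that can give rise to *Icam1*+ preadipocytes, and they carry *Cd55*, *Ly6c1*, *Anxa3* and *Wnt2*. *Pi16* encodes a membrane-anchored peptidase inhibitor, *Dpp4* a cell surface dipeptidase, *Cd248* the stromal glycoprotein endosialin, *Akr1c18* the hydroxysteroid dehydrogenase that inactivates progesterone, and *Fndc1* a matrix protein with fibronectin domains. Of the genes on the other side of the rule, *Penk* encodes proenkephalin, *Mmp3* the protease stromelysin, and *Smoc2*, *Cthrc1* and *Mfap4* secreted matrix proteins.

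The members sat mostly in the TEB fragments. They made up 7 of 121 fibroblasts in the nipple fragments (5.79%), 10 of 37 in the ducts (27.0%) and 77 of 96 in the TEBs (80.2%). Across fragments the share ran from 2.86% to 10.7% in the nipple (mean 6.15 ± 3.87%, SD, n = 4), from 10% to 66.7% in the ducts (34.1 ± 23.4%, n = 6) and from 50% to 100% in the TEBs (78.3 ± 20.6%, n = 6). By this rule the nipple and TEB fragments did not overlap, while the ducts overlapped both. The lowest TEB share, 50% in TEB 5, rests on 3 members without a UMI of *Pi16*, *Dpp4* or *Akr1c18*. Counting only members whose mean z-score of the 5 member genes exceeded 2, TEB 5 held none and nipple 4 held 1. At that line the nipple and TEB fragments overlapped. Single fragments held few fibroblasts, from 3 in duct 1 to 35 in nipple 3, so their exact binomial intervals are wide. In TEB 6, 4 of 4 fibroblasts were members, with a Clopper-Pearson 95% interval of 39.8% to 100%, which covers counting error only. How many fibroblasts a fragment yields depends on how it was cut, digested and sorted, and the part of these steps in the shares was not tested.

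**Figure D1:**
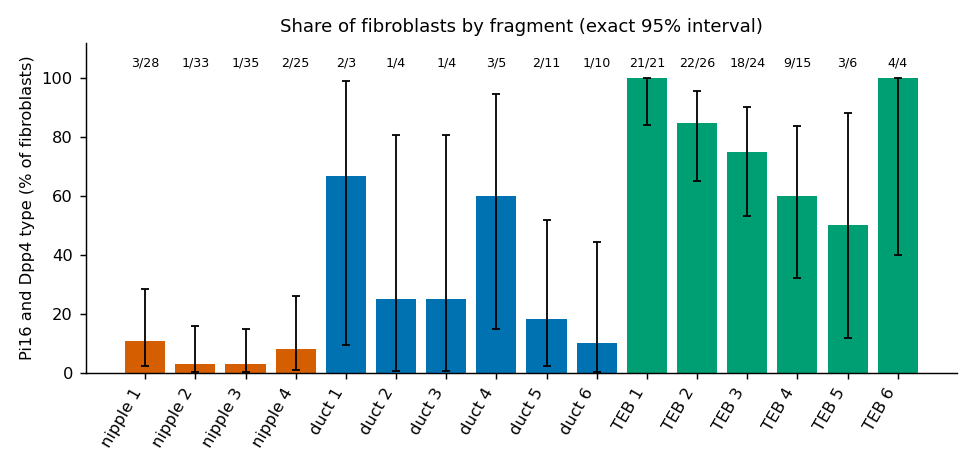
Share of the fibroblasts of each fragment that were *Pi16* and *Dpp4* type (y axis, %; bars start at 0), with exact 95% binomial intervals and the counts above each bar; nipple fragments are orange, ducts blue and TEBs green. The 4 nipple fragments lie between 2.86% and 10.7% and the 6 TEBs between 50% and 100%. The lowest TEB bar, TEB 5, consists of 3 members without a UMI of *Pi16* or *Dpp4*.

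The 94 members were of unequal kind. In 67 of them the mean z-score of the 5 member genes exceeded 2, and in 0 of the 160 other fibroblasts it did. Of these 67 cells, 61 came from TEB 1 to TEB 4, 1 from TEB 6, 4 from ducts and 1 from a nipple fragment. At the other end, 15 members lay within 0.25 of equal scores, as did 22 other fibroblasts. The members just inside the cut had score gaps of 0.029, 0.043 and 0.049, and the others just outside it of -0.0023, -0.010 and -0.041. A gap of 0.049 is that of a cell with no UMI of any of the 10 genes, and 7 members, 3 from the nipple and 4 from TEBs, had none: they are members through the offset of the z-scores alone.

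**Figure D2:**
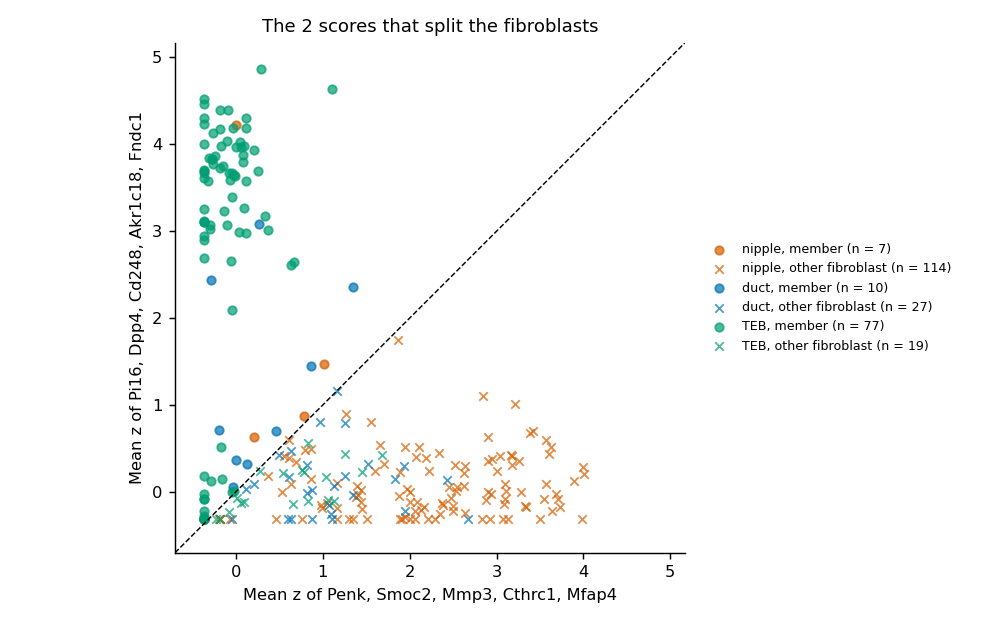
Both scores of each of the 254 fibroblasts: mean z-score of *Penk*, *Smoc2*, *Mmp3*, *Cthrc1* and *Mfap4* (x axis) and of *Pi16*, *Dpp4*, *Cd248*, *Akr1c18* and *Fndc1* (y axis), circles for members and crosses for other fibroblasts, coloured by location. The dashed line marks equal scores; 67 members lie above a y value of 2 and apart from the line, and 15 lie within 0.25 of it.

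The members differed in how many of the 5 genes that chose them they carried, which describes the rule and is no check of the label. TEB 1 to TEB 4 held 21, 22, 18 and 9 members, 70 in all, of which 65 had UMIs of at least 3 of the 5 member genes, 61 of both *Pi16* and *Dpp4*, and 50 of all 5. Among 144 other fibroblasts from fragments with at least 5 of them, 11 had at least 3 of the genes, 4 had both *Pi16* and *Dpp4* and 0 had all 5. The median depth was alike, 36230.5 UMIs in the 70 members and 35980.5 in the 144 other fibroblasts. With each cell thinned to 5000 UMIs, *Pi16* was found in 85.7% of the members (94.3% unthinned) and 20.1% of the others (41.0%), *Dpp4* in 72.9% (88.6%) and 2.78% (9.03%), and *Akr1c18* in 70.0% (80.0%) and 0 of 144 (3 of 144). As a background, 42.1% of the 323 epithelial cells of the TEBs, which should lack these genes, had a UMI of *Pi16* and 6.81% one of *Dpp4*, at a median of 41355 UMIs and levels of 17.6 and 1.77 CPM. Over all 946 epithelial cells the shares were 18.2% and 3.91% at a median of 30221 UMIs. The unthinned share of other fibroblasts with a UMI of *Pi16*, 41.0%, did not exceed that of the epithelium of TEBs. By level, other fibroblasts of the nipple, at 135 CPM, lay above that epithelium. Those of ducts (2.17 CPM) and TEBs (9.33 CPM) lay below it. How much of these UMIs is background was not tested.

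The other 24 members, spread over 12 fragments, were mixed. Only 9 of them had at least 3 of the 5 genes (1 of 7 in TEB 5 and TEB 6, 6 of 10 in ducts, 2 of 7 in nipple fragments) and 6 had none. Single cells among them were as strongly marked as those of TEB 1 to TEB 4. A TEB 6 cell held 123 UMIs of *Pi16*, 18 of *Dpp4* and 122 of *Akr1c18* among 73157, and a nipple 4 cell held 103, 25 and 119 among 54589. All 3 members of duct 4 carried *Akr1c18* (50, 24 and 140 UMIs) and *Dpp4* (7, 10 and 1), but a cell with 32 UMIs of *Mmp3* was among them. The 3 members of TEB 5 had no UMI of *Pi16*, *Dpp4* or *Akr1c18*, and the 3 of nipple 1 had none either. In 2 of the nipple 1 cells, pericyte marker genes summed to 3250 and 2545 CPM (UMIs scaled to a fixed total), against 45.0 CPM over all members. The name *Pi16* and *Dpp4* type therefore goes against the UMIs of the members of TEB 5 and nipple 1, which held neither gene. Neither gene was found in the single members of nipple 2, nipple 3, duct 3 and duct 6 either. The same held for the TEB 6 members other than the cell named above, and for part of those of duct 1 and duct 5.

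For levels, UMIs were summed over the cells of a fragment and divided by the sum's total, in CPM. *Pi16* (chromosome 17, 29317680 to 29330593, plus strand of GRCm38) stood at 2623, 2266, 2289.9 and 3106 CPM in the members of TEB 1 to TEB 4. In the other fibroblasts of the 8 fragments with at least 5 of them (nipple 1 to 4, duct 5 and 6, TEB 3 and 4) it had a lowest of 0, a median of 53.2 and a highest of 192 CPM. *Dpp4* (chromosome 2, 62330073 to 62412231, minus strand) stood at 356, 439.5, 269 and 397 CPM in the same members. Its highest value in other fibroblasts, 145 CPM, was that of TEB 3, and the next was 14.7 CPM. *Akr1c18* (chromosome 13, 4132615 to 4150654, minus strand) was the cleanest of the 5, at 818, 561, 824 and 871 CPM in members and at most 3.31 CPM in any sum of other fibroblasts. *Cd248* (726 to 893 CPM against 36.2 to 209.7 CPM) and *Fndc1* (623 to 995 CPM against 0 to 70.2 CPM) were found in both populations at different levels. *Penk* was at 1.29 to 33.6 CPM in members and 69.8 to 1097 CPM in other fibroblasts. *Smoc2* was the weakest of the 5 on that side, since the values of members (41.2 to 194 CPM) overlapped those of the others (9.94 to 4423 CPM): duct 5 had 9.94 CPM and TEB 3 4423 CPM. *Mmp3* was at 0 in the other fibroblasts of TEB 3 and at 186 CPM in those of TEB 4, against 1512 to 2271 CPM in the 4 nipple fragments and 1201 to 1318 CPM in ducts 5 and 6.

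Which genes, apart from those that the rule or the classes used, set the members apart was asked over those sums: 4 of members (TEB 1 to TEB 4, 168721 to 1044092 UMIs each) and 8 of other fibroblasts (128904 to 1477147 UMIs). A gene was called when no member sum overlapped any other sum and the mean log2(CPM + 5) differed by at least 1, that is 2-fold on a scale which understates low genes. Of 7890 genes, 284 (3.6%) were called, 208 higher in members (2.64%) and 76 lower (0.963%), and the median difference of all genes was 0.16. This comparison was added after the data were examined, and a count of this kind is a description, since the members were chosen on the same cells. All member sums are TEBs and 4 of the 8 other sums are nipple fragments. The call therefore also had to hold against the other fibroblasts of TEB 3 and TEB 4, 6 cells each, from the same fragments as members. Their median score gap was -0.65 in TEB 3 and -0.20 in TEB 4, against -1.66 over all other fibroblasts. In TEB 4, 5 fibroblasts lay within 0.25 of equal scores, and only 1 of these was a member. The check in TEB 4 thus rests largely on cells near the cut. With sums of at least 3 cells, 8 of members and 12 of other fibroblasts, 0 genes were called, and which of the added sums ended the calls was not tested. Without the members of TEB 3, which left 3 member sums to hold the call, the count was 453.

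The gene furthest above the others was *Smpd3* (chromosome 8, 106252548 to 106337988, minus strand), which encodes a neutral sphingomyelinase. It stood at 520.1, 453, 306 and 261 CPM in members and had a lowest of 0, a median of 0 and a highest of 5.45 CPM in other fibroblasts, a difference of 6.01 ± 0.27 (SE) on the log2 scale. It was found in 72.9% of members and 1.39% of other fibroblasts (2 of 144). At 5000 UMIs a cell the shares were 62.9% and 0 of 144; a count of 0 allows up to 2.08% of cells with a UMI at that depth, for counting error only. *Mgll*, the lipase that breaks down monoacylglycerols, stood at 142 to 223 CPM against 0 to 48.2 CPM. Among secreted proteins *C3*, the central complement component, was at 2209, 2268, 1693 and 2015 CPM in members and had a lowest of 12.1, a median of 119 and a highest of 825 CPM in the others (3.92 ± 0.76). The 2 highest sums of other fibroblasts were duct 5 and TEB 4, and nipple fragments had 17.7 to 136 CPM. *Igfbp5*, a binding protein of insulin-like growth factors, stood at 647, 607, 490.4 and 669.7 CPM against 6.89 to 176 CPM, while *Igfbp7* was among the genes furthest below. The guidance ligand *Sema3c* was at 325, 357, 256 and 349.7 CPM in members and at most 49.02 CPM in others (4.14 ± 0.45).

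*Il18*, a cytokine of the interleukin family, was at 53.3 to 134 CPM in members, and a single UMI of it was found over the 144 other fibroblasts. *Car8*, a carbonic anhydrase relative without enzyme activity, showed nearly the same pattern (59.3 to 122 CPM against 0 to 3.38 CPM). *Efhd1*, a calcium-binding protein of mitochondria, was at 167 to 358 CPM in members. Of the other sums TEB 3 had 66.3 CPM and the rest at most 10.6. *Ebf2*, a transcription factor of adipocyte commitment, was at 82.4 to 160.03 CPM against 0 to 78.98 CPM, with 6 of the 8 other sums at 0. *Anxa3*, an annexin, stood at 1010.4, 784, 713 and 652 CPM in members and 25.05 to 151 CPM in others. The ER+ luminal-like cells of the same 4 fragments also had 441 CPM of it. *Mustn1* (316 to 942 CPM against 0.68 to 94.3 CPM), *Sbsn* (127 to 290.4 CPM against 0 to 23.3 CPM), *Arl4d* (124 to 249 CPM against 0 to 16.8 CPM) and *Aif1l* (74.7 to 178 CPM against 0 to 51.7 CPM) were also among the 15.

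On the lower side the chemokine gene *Cxcl14* (chromosome 13, 56288643 to 56296551, minus strand) led, at 3.83, 2.24, 3.86 and 0 CPM in members (-5.46 ± 0.57 on the log2 scale). Other fibroblasts had a lowest of 23.3, a median of 418 and a highest of 739 CPM. Its lowest other value was TEB 4 and the next TEB 3, 229 CPM, below all nipple and duct sums, and basal-like cells of the 4 member fragments had 1254 CPM. The proteoglycan gene *Bgn* (chromosome X, 73483602 to 73495933, plus strand), which encodes biglycan, was at 66.1, 53.7, 63.1 and 35.6 CPM in members and 325 to 1314 CPM in others (-3.95 ± 0.30). It was detected at 5000 UMIs in 14.3% of members and 87.5% of other fibroblasts. *Igfbp7* was at 64.2, 152, 278 and 88.9 CPM in members and 1356 to 2021 CPM in others. There it was found in 143 of 144 thinned cells, and the 8 sums lay close together. *Il6* stood at 0 to 12.3 CPM in members and 53.00 to 717 CPM in others, highest in TEB 3. *Mgp*, an inhibitor of calcification, was at 0 to 8.62 CPM against 35.4 to 653 CPM, and *Sparcl1*, an anti-adhesive matrix protein, at 0 to 42.5 CPM against 82.8 to 1434 CPM. The adhesion genes *Cdh11* (0 to 48.9 CPM against 62.1 to 443 CPM) and *Vcam1* (5.93 to 28.3 CPM against 42.2 to 626 CPM) were lower too. So were the matrix genes *Matn2* (0 to 52.7 CPM against 76.3 to 1543 CPM), *Kera* (0 to 33.5 CPM against 46.3 to 543 CPM) and *Hmcn1* (0 to 41.4 CPM against 133 to 282 CPM), and the protease gene *Mmp19* (11.9 to 29.6 CPM against 62.1 to 304 CPM). *Crispld2* (8.62 to 54.1 CPM against 89.9 to 723 CPM), *Fxyd5* (0 to 22.4 CPM against 40.9 to 202 CPM) and *Fam49a* (0 to 17.2 CPM against 31.03 to 177 CPM) complete the 15.

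**Figure D3:**
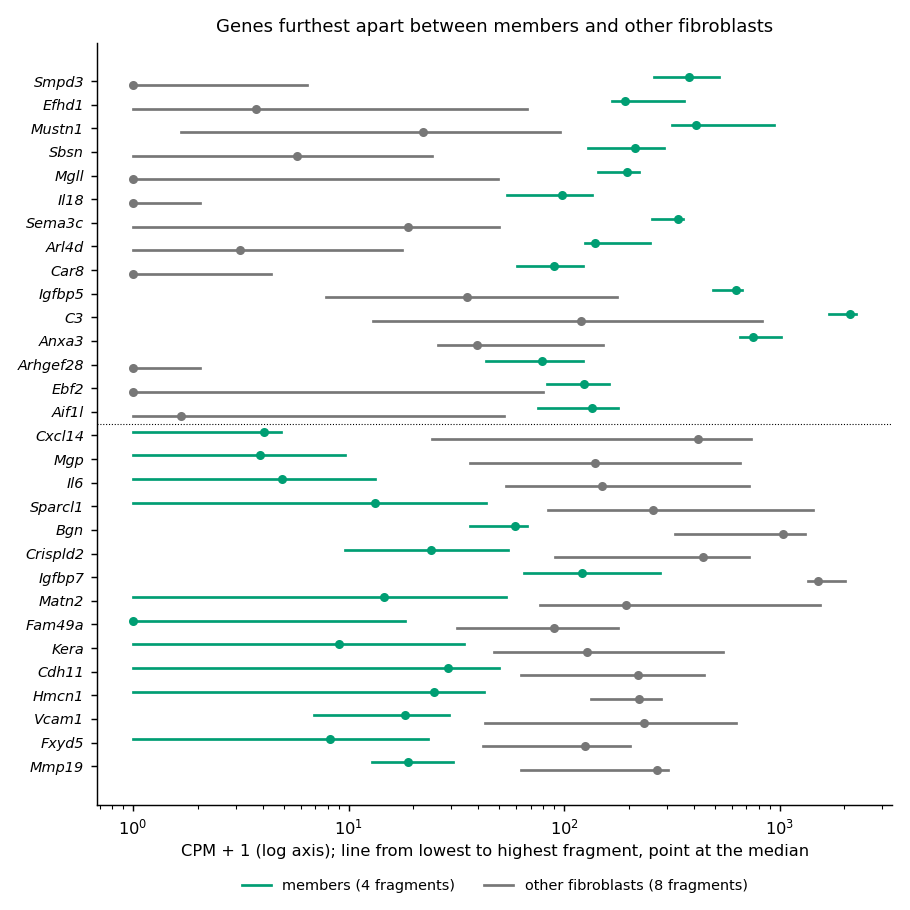
The 15 genes furthest above and the 15 furthest below the other fibroblasts among those called with at least 50 CPM in the higher population: CPM + 1 (x axis, log scale), lines from the lowest to the highest fragment sum and points at the median, green for members (4 fragments) and grey for other fibroblasts (8 fragments). The lines of a gene do not overlap, which is how genes were called; *Smpd3* runs from 261 to 520.1 CPM in members and from 0 to 5.45 CPM in the others.

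Gene lists written for this tissue show which kinds of genes these are. Each count stands beside the 3.6% called and the median of 0.16 over all genes. The lists were written with earlier results of these data known. Of the interstitial progenitor list, 21 of its 36 measured genes were called higher and 0 lower (median difference 1.84), and all 36 differences were above 0. Most of these genes are described as companions of *Pi16* or *Dpp4* in fibroblasts, so the list is close to the rule. Within fragments, the comparison given further below, 2 of 25 measured genes of the list were called higher, *Emilin2* and *Procr*. There 1 was called lower, *Il33*, and the list's median was 0.90. *Ly6c1*, a GPI-anchored surface protein, stood at 2518, 2343, 1662 and 2389 CPM in members and 24.1 to 999.5 CPM in others, highest in duct 6. *Ly6a* (Sca-1) was at 2939.9 to 4013 CPM against 90.4 to 1639.6 CPM. *Cd55*, which protects cells from complement, was at 186 to 356 CPM against 0 to 42.2 CPM, and *Cd34* at 1068 to 1523 CPM against 182 to 681 CPM. *Wnt2* (125 to 202 CPM against 0 to 116 CPM), *Pcolce2* (472 to 788 CPM against 0 to 245 CPM), *Clec3b* (723 to 902 CPM against 7.76 to 365 CPM) and *Procr* (656 to 877 CPM against 19.9 to 541 CPM), which encodes the protein C receptor, were called as well. *Procr* has been used in this gland as a marker of basal stem cells, and basal-like cells of the same fragments had 53.2 CPM, below the members. The most abundant gene of the list, *Igfbp6*, was not called (3475 to 5316 CPM against 760.3 to 3429 CPM). Summed over its 38 genes, the list took 29271 to 38330 CPM of the members and 8696 to 16036 CPM of the others.

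The preadipocyte list ran the other way. Of it, 1 of its 25 measured genes were called higher and 5 lower (median difference -1.79). *Icam1* (10.3 to 27.8 CPM against 42.2 to 414 CPM), *Vcam1*, *Cxcl12* (77.1 to 144 CPM against 252 to 1012 CPM), *Sparcl1* and *Clec11a* (0 to 14.2 CPM against 15.5 to 133 CPM) were lower and *Ebf2* was higher. *Lpl*, the lipoprotein lipase, was not called. Members had 494 to 610.5 CPM and the others 50.8 to 1458 CPM, at most 329.96 CPM in the nipple and 980 to 1458 CPM in duct 5, duct 6 and TEB 4. *Gpc3* overlapped (425 to 794 CPM against 341 to 4339 CPM), with the highest sum in the other fibroblasts of TEB 3. The adipocyte genes *Cidec* and *Cfd* were at 0 in both populations. Summed, the list took 2892 to 3402 CPM of the members and 6169 to 10474 CPM of the others.

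In each extracellular matrix list most measured genes were not called, but the share called was above the 3.6% of all genes. Of the collagen list, 0 of its 17 measured genes were called higher and 2 lower (median difference -0.75). The 2 were *Col4a1* (149 to 324 CPM against 785 to 1250.1 CPM) and *Col4a2* (46.9 to 197 CPM against 470.1 to 896 CPM), which encode the chains of basement membrane collagen and share a bidirectional promoter. *Col1a2* did not reach 2-fold (4105 to 4687 CPM against 5521 to 8915 CPM) but did not overlap either. Over the 25 collagen genes in the table, of which *Col1a1* and *Col3a1* served to name the class, members had 11214 to 13656 CPM and other fibroblasts 14204 to 24164 CPM. Within fragments the list's median was 0.16, with *Col4a1* and *Col4a2* again the genes called, so the direction of its median turned. Of the elastic fibre list, 3 of its 19 measured genes were called higher and 0 lower (median difference 0.19). *Fbn1*, fibrillin, the rod of microfibrils, was at 1276 to 1717 CPM against 379.7 to 762 CPM. *Mfap5* stood at 2408 to 3959 CPM against 633 to 1726 CPM and *Emilin2* at 415 to 482 CPM against 48.2 to 202 CPM. Elastin itself, *Eln*, overlapped (956 to 1535 CPM against 85.3 to 2136 CPM). Of the proteoglycan and hyaluronan list, 4 of its 22 measured genes were called higher and 3 lower (median difference 0.12). Within the small leucine-rich proteoglycans the members had more *Ogn* (1052 to 1772 CPM against 31.03 to 797 CPM) and *Aspn* (693 to 1071 CPM against 6.03 to 192 CPM) and less *Bgn* and *Lum* (1032 to 1932 CPM against 3127 to 5229 CPM). Of the collagen processing list, 1 of its 15 measured genes were called higher and 1 lower (median difference -0.32). *Pcolce2* was higher, and *Pcolce*, its paralogue, was not called (1095 to 1184 CPM against 706 to 1683 CPM). Of the protease and inhibitor list, 2 of its 22 measured genes were called higher and 1 lower (median difference -0.40). The inhibitor gene *Timp2* (1031 to 1822 CPM against 163 to 908 CPM) and the plasminogen activator gene *Plau* (17.8 to 30.2 CPM against 0 to 10.9 CPM) were higher.

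Among signals, the chemokine and cytokine list had 3 of 15 genes lower, *Cxcl12*, *Cxcl14* and *Il6*, and 0 higher, with a median difference of -0.85. *Ccl2* (1052 to 2999 CPM against 156 to 6044 CPM) and *Ccl7* (391 to 662 CPM against 15.7 to 4869 CPM) overlapped and were highest in the other fibroblasts of TEB 3. The complement list had *C3* and *Cd55* higher of 10, while the complement inhibitor gene *Serping1*, abundant in both, was not called (1555 to 2139.6 CPM against 1065 to 1766 CPM). Of the growth factor ligands, 2 of its 23 measured genes were called higher and 1 lower (median difference -0.10). *Wnt2* and *Wnt11* (17.8 to 52.8 CPM against 0 to 16.3 CPM) were higher and *Kitl* (16.3 to 106 CPM against 108 to 447 CPM) lower. Of the secreted antagonists, 2 of its 18 measured genes were called higher and 1 lower (median difference 0.26). These were *Igfbp5* and *Chrdl1*, which encodes a binder of bone morphogenetic proteins (64.9 to 132 CPM against 0 to 15.5 CPM), against *Igfbp7*. The guidance list had *Sema3c* and *Ntn1* (46.3 to 67.1 CPM against 0 to 43.3 CPM) higher of 14 and 0 lower. In the retinoid and steroid list *Aldh1a3* (24.6 to 51.5 CPM against 0 to 23.2 CPM) and *Rarg* (70.8 to 119 CPM against 0 to 51.3 CPM) were higher of 16 and 0 lower. The transcription factor gene *Prrx1* was at 359, 257, 228 and 308 CPM in members against 12.1 to 119 CPM in others. It was the single gene called of 9 in the hedgehog and Wnt target list. Of 13 positional transcription factor genes 0 were called.

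The dermal lists, made of genes known from skin fibroblasts, split. Of the reticular list, 3 of its 10 measured genes were called higher and 1 lower (median difference -0.10). *Gpx3*, an extracellular glutathione peroxidase, was at 1967 to 3183 CPM against 101 to 1155 CPM and *Plac8* at 529 to 874 CPM against 24.1 to 467 CPM. For *Gpx3* the ER+ luminal-like cells of the same fragments had 3899 CPM, above the members, and for *Plac8* 416 CPM. Of the papillary list, 1 of its 9 measured genes were called higher and 1 lower (median difference -0.92). *Crabp1*, a papillary gene that binds retinoic acid, was at 0, 64.9, 381 and 189.7 CPM in members and 51.7 to 1573 CPM in others. It had 1131 to 1573 CPM in the nipple and 51.7 in duct 6, so the populations overlapped. Of the contractile list, 0 of its 11 measured genes were called higher and 2 lower (median difference -1.39). These were *Tpm1* (71.1 to 265 CPM against 284 to 869 CPM) and *Cdh11*; *Postn* overlapped (839.96 to 1751 CPM against 826 to 6068 CPM). Within fragments 0 of 9 genes of the list were called and its median turned to 0.84. The cell cycle list had 0 of 10 genes called with a median difference of 1.01. UMIs of *Mki67* or *Top2a* were found in 10 of 94 members and 10 of 160 other fibroblasts. Of 23 immediate early and stress genes, which dissociation can induce, 1 was called higher, *Klf2* (119 to 349 CPM against 0 to 82.8 CPM), and 0 lower, at a median of -0.01.

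**Figure D4:**
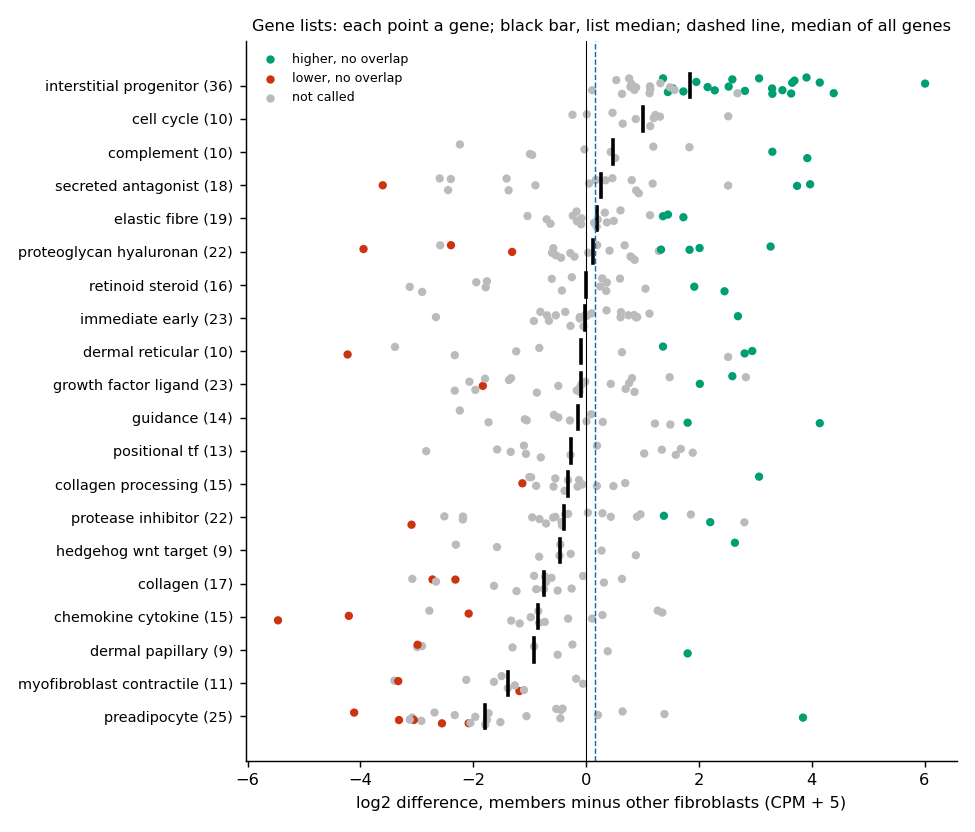
Differences of the measured genes of 20 lists between members (4 fragment sums) and other fibroblasts (8 sums), in log2(CPM + 5) (x axis); each point is a gene, green where called higher, red where called lower, black bars mark list medians and the dashed line the median of all 7890 genes, 0.16. The interstitial progenitor list, with 21 of 36 genes called higher, lies furthest right by its median of 1.84 and the preadipocyte list furthest left at -1.79.

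Markers of other cell types took less of the sums compared than fibroblast markers. The 8 fibroblast markers, some of which named the class, summed to 19069 to 27027 CPM in members and 27105 to 39365 CPM in others. Of the rest, luminal and Schwann cell markers reached the highest sums in members. The 5 basal markers summed to 0 to 20.1 CPM in members and 15.5 to 145.6 CPM in other fibroblasts, with *Oxtr* at 0 in members. The 5 luminal markers, 394 to 564 CPM against 288 to 817 CPM, were led by *Krt8* and overlapped. *Pecam1*, *Cdh5*, *Kdr* and *Emcn* were at 0 in members, and the 5 endothelial markers reached 31.03 CPM in the others. The 6 pericyte markers ran from 0 to 52.6 CPM in members, with *Rgs5* and *Higd1b* at 0, and from 3.31 to 194 CPM in others. T cell markers reached 0.958 CPM in members and 16.9 CPM in others, mast cell markers 1.29 and 48.2 CPM, and the 2 adipocyte genes in the table were at 0. Myeloid markers reached 45.9 CPM in members and 69.2 CPM in others. The 5 Schwann cell markers, led in members by *Mbp*, were at 0 to 229.9 CPM in members and 2.72 to 150.7 CPM in others. The part of free RNA or of doublets in the differences above was not tested.

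Levels varied between the members of TEB 1 to TEB 4, less for some leading genes than for others. *C3* averaged 2046 ± 259 CPM (SD, n = 4), *Igfbp5* 604 ± 79.8 CPM and *Sema3c* 322 ± 45.9 CPM, while *Mustn1* spread from 316 CPM in TEB 2 to 942 CPM in TEB 4 and *Il18* from 53.3 to 134 CPM. Over 3296 genes with a mean of at least 50 CPM, Pearson's r of log2(CPM + 5) was 0.79 to 0.88 between member sums, 0.51 to 0.75 between member and other sums and 0.89 to 0.92 between the other fibroblasts of the 4 nipple fragments. Genes are not independent, and the deeper sums have the less noise. The members of TEB 3 and TEB 4 and the other fibroblasts of the same fragments had r of 0.55 and 0.59, within the range of pairs from different fragments. The titles of TEB 1 to TEB 4 share their first digit, 3, with duct 1 and duct 2, and those of TEB 5 and TEB 6 have a 4. The labels do not say what it stands for, and this digit and the strong presence of members among the TEBs cannot be told apart.

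Beyond these fragments the leading genes were found in some members and not in others. In the TEB 5 members *Smpd3*, *C3*, *Efhd1*, *Mgll* and *Sbsn* were at 0 and *Ly6a* at 10.8 CPM, while *Igfbp7* (879 CPM), *Lum* (3219.5 CPM) and *Kera* (706 CPM) were above all members of TEB 1 to TEB 4. The nipple 4 members had 284 CPM of *Smpd3*, 1914 of *C3* and 3018 of *Ly6c1*, and also 2684 CPM of *Mmp3*, of which 263 UMIs lay in 1 of the 2 cells and 2 UMIs in the other, the strongly marked one. The duct 4 members had 2125 CPM of *Akr1c18*, 4132 of *Ly6a*, 5135 of *Gpx3* and 1271 of *Anxa3*, at or above TEB 1 to TEB 4, but only 9.93 CPM of *Smpd3* (1 UMI in 3 cells), 159 of *Igfbp5* and 0 of *Ebf2*, *Uchl1*, *Gap43* and *Limch1*. These are 3 cells of a single fragment, so a difference between duct and TEB members has no replicate check here. *C3* was also found without *Pi16*, *Dpp4* or *Akr1c18*, with 44 UMIs in a duct 1 member and 26 in the nipple 3 member.

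**Figure D5:**
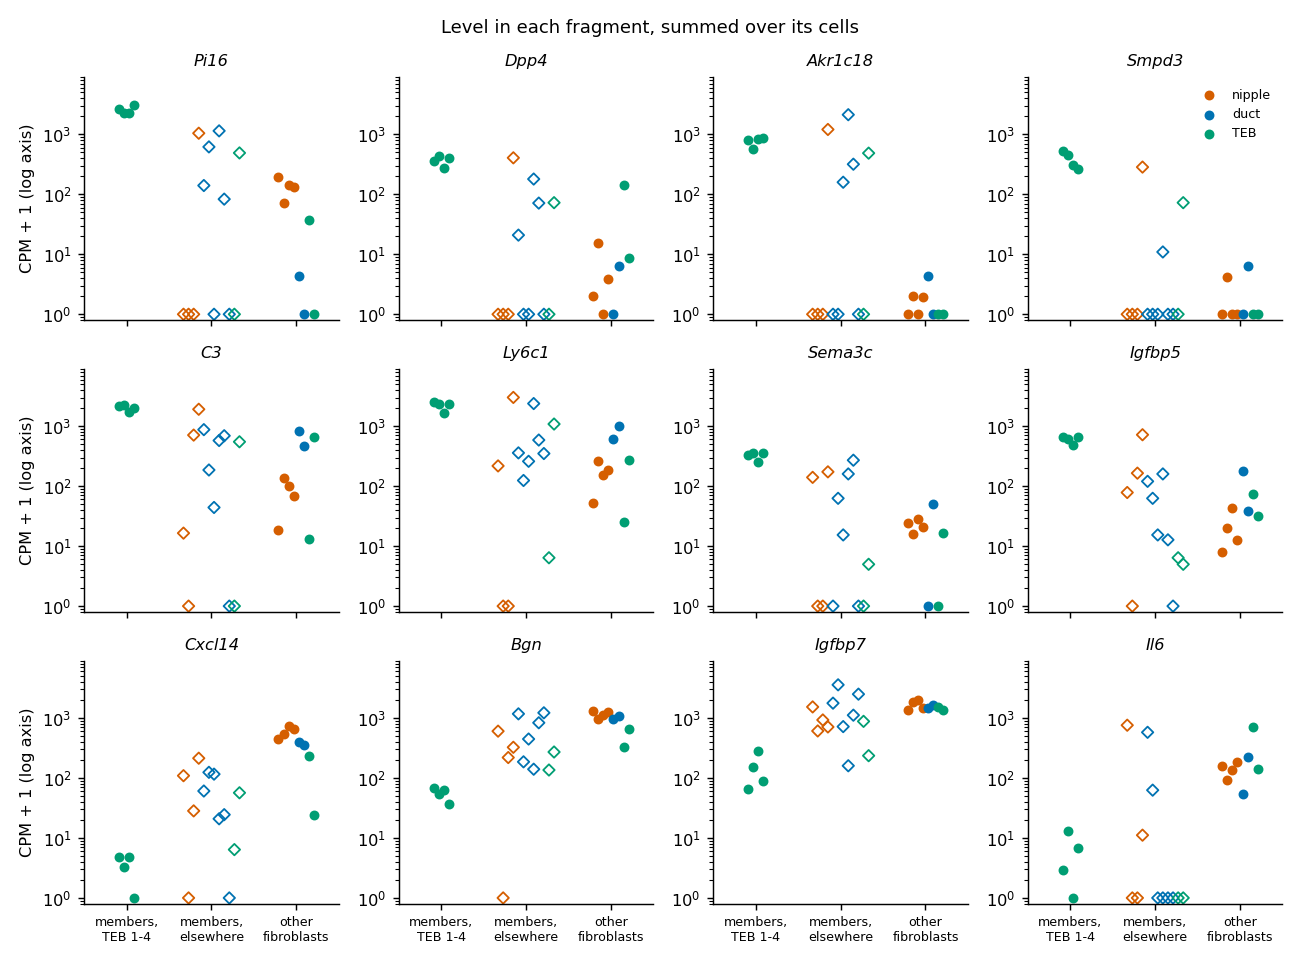
CPM + 1 (y axis, log scale) of 12 genes in each fragment sum: members of TEB 1 to TEB 4 (left), members of the other 12 fragments, 1 to 4 cells each (open diamonds, middle), and other fibroblasts of the 8 fragments with at least 5 (right), coloured by location. The 4 left points are apart from the right points for all 12 genes through the choice of genes. *Pi16*, *Dpp4* and *Akr1c18* served to select the members, and the rest were called because the sums did not overlap. The open diamonds spread widely, for *Akr1c18* from 0 to above all of TEB 1 to TEB 4.

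The comparison planned for the same fragments, members against other fibroblasts within nipple 1, TEB 2, TEB 3, TEB 4 and TEB 5 (at least 3 cells of each), covered fewer genes. A gene was called here when its difference had the same sign in all 5 fragments and a median of at least 1. Of 2920 genes 94 were called (3.22%), 59 higher (2.02%) and 35 lower (1.2%). Since nipple 1 and TEB 5 contribute members with at most 2 of the 5 genes, this count describes the split by the rule rather than the strongly marked cells. It was 196 without nipple 1, 150 without TEB 3, 251 without TEB 4 and 246 without TEB 5, and 139 without TEB 2. Each of these counts asked for the same sign in only 4 fragments. *Lmo2*, a transcriptional cofactor, had the largest median difference upward, 3.80, and was also called across fragments (142 to 255 CPM against 0 to 48.1 CPM). *Igfbp5* (2.79), *Tns1* (2.84), *Tnfrsf21* (2.85), *Timp2*, *Emilin2* and *Procr* were called higher in both comparisons. *Crispld2* (-3.35), *Akap2*, *Olfml3*, *Col4a1* and *Col4a2* were lower in both. *Rbp4*, the retinol carrier (-4.25), *Gpc3* (-2.24) and *Il33* (-1.59) were called lower within fragments and were not called across them. Without cells that had no UMI of the subtype genes the median for *Rbp4* was -0.69, short of the call, and without nipple 1 or without TEB 5 it was -2.47. Both comparisons use the members of TEB 2 to TEB 4, so the second is no replication of the first.

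Whether members differ by location was tested over fragment sums with at least 2 members (nipple 1 and 4, duct 1, 4 and 5, TEB 1 to 6), since only nipple 1 and duct 4 outside the TEBs reached the 3 cells planned. With edgeR's quasi-likelihood test and Benjamini-Hochberg adjustment over 5231 genes, 2 genes were called between nipple and TEB (0.0382%; 648 at an unadjusted p under 0.05), 1 between duct and TEB (0.0191%; 512) and 0 between nipple and duct (0.0%; 587, and 3 by DESeq2). Single-cell sums did not enter the fit. *Ifitm1*, an interferon-induced membrane protein, was at 1423 and 496 CPM in nipple 1 and nipple 4, at 0 in 5 TEBs and at 2.57 CPM in TEB 3 (adjusted p = 7.1e-07, edgeR). The single members left out had 0 in nipple 2 and nipple 3 and 872 CPM in duct 6. *Scg3*, a secretory granule protein, was at 866 and 1124 CPM against at most 7.66 CPM in TEBs (adjusted p = 0.024, edgeR), and at 0 in the members of nipple 2 and nipple 3. It was not called by DESeq2 (adjusted p = 0.0902), with at least 10000 UMIs a cell (edgeR, 0.11) or without TEB 2, TEB 4 or TEB 6 (edgeR, 0.15, 0.0647 and 0.0807). *Tnfaip6*, which modifies hyaluronan, was at 7714, 2523 and 3977 CPM in ducts 1, 4 and 5 and 1049 to 1577 CPM in the 6 TEBs, a log2 change of 1.77 ± 0.27 (SE; adjusted p = 0.0033, edgeR), and without duct 1 (adjusted p = 0.16) or without cells lacking the subtype genes (0.23) it was not called. The single members of duct 2, duct 3 and duct 6 had 61.7, 3750.2 and 58.1 CPM. Without nipple 4 the nipple and TEB count was 29 and without nipple 1 it was 5. The nipple values rest on 5 cells, the 3 of nipple 1 with at most 2 of the member genes each and 2 of them with 2545 and 3250 CPM of pericyte markers, and p-values measure only the spread between fragments, which may be technical.

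Whether the step from other fibroblasts to members differed between nipple and TEB was tested with a fragment block over nipple 1 and TEB 2 to TEB 5. Of 6881 genes 12 were called (0.174%; 445 at an unadjusted p under 0.05), 6 in each direction, but the nipple side is a single fragment with 3 weakly marked cells, so it has no replicate, and the fit cannot be made without them. Without TEB 5 the count was 76. Other fibroblasts were tested by location alone, without the fragment block, over sums of at least 3 cells. Between 4 nipple and 4 TEB fragments they differed at 13 of 4527 genes (0.287%), 12 higher in the nipple. Leaving out 1 fragment at a time gave 3 (without nipple 3) to 43 (without duct 2). *Ramp3* (137 to 353 CPM against 0 to 7.76 CPM, adjusted p = 0.0014, edgeR) and *Col7a1* (228 to 391 CPM against 0 to 23.3 CPM, adjusted p = 0.028, edgeR) were higher in the nipple and *Sox9* in the TEBs (1.97 to 11.5 CPM against 47.4 to 371 CPM, adjusted p = 0.012, edgeR). The sums of other fibroblasts held 3 to 6 cells in these TEBs and 23 to 34 in the nipple fragments. Their median score gap was -0.50 in TEBs and -2.30 in the nipple, so they lie at unlike distances from the cut. The part of this in the 13 genes was not tested. Members of TEB 1 to TEB 4 were set against a mixture of these fibroblasts above.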

How the data were processed

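Single cells of 16 mammary fragments were sequenced by 3' SMART-seq. The authors trimmed reads (Trim Galore, FastQC), handled UMIs (UMI-tools), aligned to mm10 (STAR, unique reads) and deposited raw UMI counts per gene and cell (featureCounts); versions are not given in the sources used here. In all, 1419 cells and 17721 genes were deposited, beside 67 spike-ins that took 0.758% of UMIs and were left out of library sizes. Fragments held 1856141 to 5233122 UMIs. Well barcodes are reused on every plate, so all 95 occur in more than 1 fragment.

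Cells with at most 5% spike-ins, 5000 to 120000 UMIs and 200 to 6000 genes were kept. Doublets were not called; each well was sorted with a single cell. Counts were summed per fragment. Members and other fibroblasts were compared as described, without a test, on log2(CPM + 5). Locations were tested with edgeR 4.0.16 in R 4.3.3 (quasi-likelihood, TMM, filterByExpr, Benjamini-Hochberg threshold 0.05), with DESeq2 1.42.0 as an alternative. The planned minimum of 3 member cells per fragment left 1 nipple and 1 duct fragment, so sums of at least 2 cells are reported. Named genes were those called with at least 50 CPM in the higher population, the 15 with the largest difference in each direction. Fits were tested on simulated data. Members, lists and tests were chosen with earlier results of these data known. Positions are from GENCODE on GRCm38 (mm10).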

Additional observations from a re-analysis of the deposited data

Results flagged for a closer look

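In 15 of 117 groups of fragment sums, a single sum stood apart from the rest by Dixon's criterion. The criterion marks about 1 in 20 groups where values are independent and normally spread. Sparse counts of genes picked for their difference are not, so the count of groups is no measure of an excess. For *Il18* and *Limch1* in other fibroblasts and *Fam49a* in members, all remaining sums were at 0. Of the other fibroblasts, TEB 3 stood apart in *Efhd1* (66.3 CPM), *Matn2* (1543 CPM), *Emilin2* (48.2 CPM), *Dpp4* (145 CPM) and *Mmp3* (0 CPM), TEB 4 in *Cxcl14* (23.3 CPM) and *Clec3b* (7.76 CPM), duct 5 in *Cd55* (0 CPM) and *Akr1c18* (3.31 CPM), nipple 2 in *Il18* (1.05 CPM), and nipple 3 in *Car8* (3.38 CPM) and *Limch1* (6.09 CPM). Of the members, TEB 1 stood apart in *Fam49a* (17.2 CPM) and *Uchl1* (279.7 CPM) and TEB 2 in *Akr1c18* (561 CPM).

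By edgeR's interaction term, the step from other fibroblasts to members was called as different between nipple 1 and TEB 2 to TEB 5 in 10 named genes. The nipple side is 1 fragment with 3 weakly marked members, 2 of which had 2545 and 3250 CPM of pericyte markers, so it has no replicate and its spread is assumed to be that of the TEBs. On the log2 scale, nipple minus TEB, the fitted values were 5.62 for *Ccl7*, 8.93 for *Cpe*, 15.37 for *Vit*, 8.61 for *Il6* and 6.32 for *Sparcl1*, and -2.77 for *Hmox1*, -2.95 for *Anxa1*, -11.04 for *Sfrp2*, -5.24 for *Timp3* and -4.99 for *Atpif1*. With at least 2 cells per fragment, which adds nipple 4, *Ccl7*, *Cpe* and *Vit* were still called. Not called there were *Il6* (edgeR, adjusted p = 0.76), *Sparcl1* (0.48), *Hmox1* (0.90), *Anxa1* (0.78), *Sfrp2* (0.072) and *Timp3* (0.50). By DESeq2 on the first set of fragments, *Vit*, *Hmox1*, *Anxa1*, *Sfrp2*, *Timp3* and *Atpif1* were not called. Fitted values of sparse genes depend on the prior count. For *Vit*, the nipple 1 members held 5 UMIs and the other fibroblasts there 0, and each sum of TEB members held 0 or 1. The other fibroblasts of TEB 2, TEB 3 and TEB 4 held 87, 61 and 16 UMIs of *Vit*, and those of TEB 5 held 0. *Ccl7*, *Cpe*, *Il6* and *Sparcl1* were likewise higher in other fibroblasts than in members of TEB 2 to TEB 4. In nipple 1 they were higher in members.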

How the results depend on the processing

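Genes apart across fragments numbered 284 in the report, 115 with each cell thinned to 5000 UMIs, 0 with at least 3 and 1048 with at least 10 cells per fragment, and 291 to 453 leaving out 1 sum; the 30 named genes kept their sign wherever they were measured, and of all named values only *Gpc6* reversed (-0.036 with at least 3 cells). Within fragments, 94 (5 fragments) became 255 without a filter, 6 thinned, 20 with at least 2 cells (8 fragments) and 192 with at least 10000 UMIs (4 fragments). It became 843 with at least 5 cells and 2308 for cells over 0.25 from the cut, each over 2 fragments. Without cells lacking the subtype genes it was 514 (3 fragments), and leaving out 1 fragment 139 to 251 (4 fragments). The call asks for the same sign in every fragment, so counts over fewer fragments are not comparable with 94. Across fragments the no-overlap call likewise depends on the number of sums. At least 10 cells left 3 of members and 4 of others, and at least 3 cells gave 8 and 12. Nipple versus TEB members gave 13 genes by DESeq2, 4 with RLE factors, 41 unfiltered, 1 thinned, 1 with at least 10000 UMIs and 1 to 29 leaving out 1 fragment. Nipple versus duct gave 3 by DESeq2, 8 unfiltered and 0 to 2 leaving out 1. Duct versus TEB gave 19 by DESeq2, 2 with RLE factors, 38 unfiltered, 0 without cells lacking the subtype genes and 0 to 5 leaving out 1. The nipple and TEB difference in step gave 7 by DESeq2, 19 thinned, 6 with at least 2 cells, 5 at 10% spike-ins and 16 to 76 leaving out 1. Other fibroblasts gave 99 by DESeq2, 135 unfiltered, 68 with only both locations, 116 with at least 5 cells, 149 over 0.25 from the cut, 28 with at least 10000 UMIs and 3 to 43 leaving out 1. The causes were not tested. Shares moved by less than the spread between fragments in every alternative run. No paired analysis was possible because duct and TEB titles share only 2 numbers and duct 2 held 1 member. Fits that left a location with too few fragments were not run.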
